A study of Mus musculus with 8 samples.

Results

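Long noncoding RNAs that stay in the nucleus or that carry small RNAs in their introns were followed in wild-type mouse embryos sired by fathers with full or reduced Eed. Malat1 and Neat1 are transcribed beside each other and remain in the nucleus, where Malat1 collects in nuclear speckles with splicing factors and Neat1 is the scaffold of paraspeckles. Snhg1 is a host gene: its introns carry small nucleolar RNAs (snoRNAs), which guide the modification of ribosomal RNA, and its spliced transcript is removed by nonsense-mediated decay. Dleu2 is the host of 2 microRNAs, miR-15a and miR-16, which restrain cell cycle and survival genes.

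The list held 7 genes: Malat1, Neat1, Gas5, Snhg1, Miat, Rmst and Dleu2. Members were the non-control probes whose transcript accession or gene name in the scanner files mapped to one of them. The rule found 12 of 55681 probes, for 4 of the 7 genes. Malat1 had 4 probes, 3 of them carrying its other name NEAT2. Neat1 had 6, and Snhg1 and Dleu2 had 1 each. No probe mapped to Gas5, Miat or Rmst, which were not analysed here. The files also hold 3 probes under NR_002840, an accession absent from the table of names. General knowledge has it as an older record of Gas5, but neither the files nor the table bears this out. These 3 probes are therefore given under the accession and counted apart.

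Each of 8 whole wild-type embryos, collected at E8.5, was hybridised to its own one-colour Agilent array. Wild-type females, C57bl6/129 per the sample labels but c57bl/6J in the study's own description, had been mated to C57bl6/129 males, and 4 embryos were sired by Eed wt/wt males and 4 by Eed hypo/wt males, which carry 1 copy of the hypomorphic allele Eed l7Rn5-1989SB. The embryos and their mothers were wild-type, so the fathers alone differed by genotype, and each group held 2 female and 2 male embryos. Values are the log2 intensity relative to the 75th percentile of the same array, so 0 is the level of a probe at that percentile and a difference of 1 is a 2-fold change. Levels of different probes were not set against each other, since probes differ in brightness. In whole embryos, fewer cells of a type and less RNA per cell cannot be told apart.

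Each group was hybridised on its own slide, so the slide and the father's genotype cannot be told apart. Replicates 2 to 4 of the Eed wt/wt fathers share, in the sample labels, the first part of their code and the other 5 embryos each have their own. What the code marks is not stated, so these 3 embryos may not be independent. The study's breeding plan lists 2 Eed wt/wt males and 3 Eed hypo/wt males. If the 4 embryos of each group came from these, some embryos in both groups share a father. Which ones is not labelled here, and the tests below treat the embryos as independent. Between 29203 and 39530 probes were well above background on an array. Replicate 1 of the Eed wt/wt fathers and replicate 3 of the Eed hypo/wt fathers had the most, with 39530 and 38878, against 35486 or fewer in the other 6 embryos. Markers of primitive erythroid cells, yolk sac endoderm, cardiac muscle, the neural tube and the presomitic mesoderm were above background in all 8 embryos, 6 of 6 genes in each list, and their summed levels overlapped between the groups. The summed level of 5 decidua and trophoblast markers did not overlap, at 13.5 to 17.0 times the 75th percentile with Eed wt/wt fathers and 8.40 to 10.5 with Eed hypo/wt fathers. Of these, Tpbpa, a trophoblast marker, was above background on no array, and the other 4, which include Prl3d1, on all 8. Only Prl8a2, a prolactin-family hormone of the decidua, separated the groups by itself, at 1.80 to 3.14 against -2.38 to 0.97 (log2 difference -2.46, unadjusted p = 0.0126, adjusted p = 1, limma), while Prl3d1, Des and Cryab overlapped. The part of these cells in the differences below was not tested.

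The starts of the transcripts are shown because host genes of snoRNAs usually belong to the class of RNAs that begin with a C followed by further pyrimidines, which ties their fate to translation. The set of start sites used here (RefSeq, GRCm38.p6) held 3 of the 4 genes and no entry for Neat1. They lay at chr19:8723447-8723506 (plus strand) for Snhg1, chr19:5802653-5802712 (minus strand) for Malat1 and chr14:61682354-61682413 (minus strand) for Dleu2. Each line runs 5′ to 3′ over 60 bases, and capitals mark the unbroken run of C or T from the first transcribed base.
Snhg1: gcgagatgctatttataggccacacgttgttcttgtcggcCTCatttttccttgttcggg
Malat1: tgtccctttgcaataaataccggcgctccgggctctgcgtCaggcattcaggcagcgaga
Dleu2: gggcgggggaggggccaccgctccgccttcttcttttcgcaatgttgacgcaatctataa
The run was 3 bases long at Snhg1, 1 at Malat1 and 0 at Dleu2. Of 32851 start sites in the table, 5.81% begin with a C and have a run of at least 3.

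The 2 microRNAs cut from Dleu2 are shown because they define the list of targets described below. They lie at chr14:61632075-61632096 (miR-15a-5p) and chr14:61631936-61631957 (miR-16-5p) on the minus strand of GRCm38.p6, and capitals mark the seed, bases 2 to 8.
mmu-miR-15a-5p: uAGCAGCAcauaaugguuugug
mmu-miR-16-5p: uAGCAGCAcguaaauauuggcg
Both mature RNAs are 22 bases long and share the seed AGCAGCA.

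All 12 probes were well above background on all 8 arrays and none was saturated. None lost its value on an array through outlier marks, and all passed the filter on low values. Between embryos with Eed hypo/wt fathers and those with Eed wt/wt fathers, 0 of 12 passed an adjusted p of 0.01 with a 2-fold change, beside 0% of all 33093 probes tested. At an unadjusted p under 0.05 the count was also 0 of 12, against 4.34% of all probes, and the groups failed to overlap at 0 of 12 probes, against 3.15%. The adjusted p was 1 for each of the 12 (limma, Benjamini-Hochberg over all probes tested). The median log2 difference of the 12 probes was -0.11, with 4 higher and 8 lower, beside -0.0024 over all probes. The 4 higher were all Malat1 probes, and 6 of the 8 lower were Neat1 probes. Probes of a gene read the same RNA, so these counts and the median describe no tendency of the 4 genes.

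**Figure D1:**
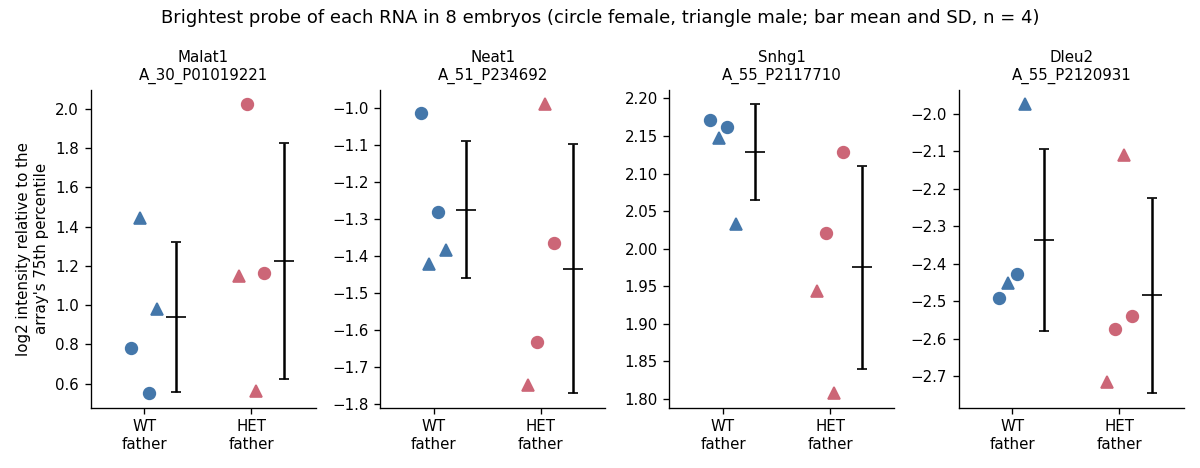
The log2 intensity relative to the 75th percentile of the array is plotted for the brightest probe of each gene, with 1 point per embryo (circles female, triangles male; blue Eed wt/wt fathers, red Eed hypo/wt fathers) and the mean and SD of each group of 4. The groups overlap in all 4 panels, and the vertical scales differ between panels.

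Malat1 was the member that varied most between embryos. Its brightest probe, A_30_P01019221, read 0.78, 1.45, 0.55 and 0.98 in replicates 1 to 4 of the Eed wt/wt fathers and 1.15, 2.02, 0.56 and 1.17 in those of the Eed hypo/wt fathers. Replicate 2 was highest in each group, and the lowest embryo of one group was close to the lowest of the other. The means were 0.94 ± 0.38 and 1.22 ± 0.60 (SD, n = 4), a log2 difference of 0.29 (SE 0.32, adjusted p = 1, limma) with a 95% interval from -0.47 to 1.04. The interval spans 0 and reaches past 1, a doubling.

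The other 3 Malat1 probes gave log2 differences of 0.17 to 0.29, so all 4 lay on the same side of 0. These probes read the same RNA in the same embryos and are not further replicates. The direction rested in part on 1 embryo: without replicate 2 of the Eed hypo/wt fathers, the highest of all, 2 of 4 probes remained above 0 and the brightest gave 0.02.

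Probes of Malat1 agreed closely in every embryo. When each probe was centred on its own mean over the 8 embryos, the 4 probes never lay more than 0.18 apart in an embryo, while the mean of the probes ranged over 1.43 between embryos. The 6 pairs of probes had Pearson correlations of 0.98 to 0.99 over the 8 embryos. For the brightest against the second brightest probe, r was 0.98 (two-sided exact permutation p = 0.000397, adjusted over 3 relations 0.00119) and Spearman's rho was 0.90 (exact permutation p = 0.00456, adjusted 0.0137). Without the 2 embryos farthest from the median, r was 0.96. The spread of Malat1 between embryos was thus seen alike by probes of both naming schemes. The range of the 4 probes, 1.41 to 1.47, was exceeded by 19.5% to 20.6% of all probes tested, whose median range was 0.64.

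**Figure D2:**
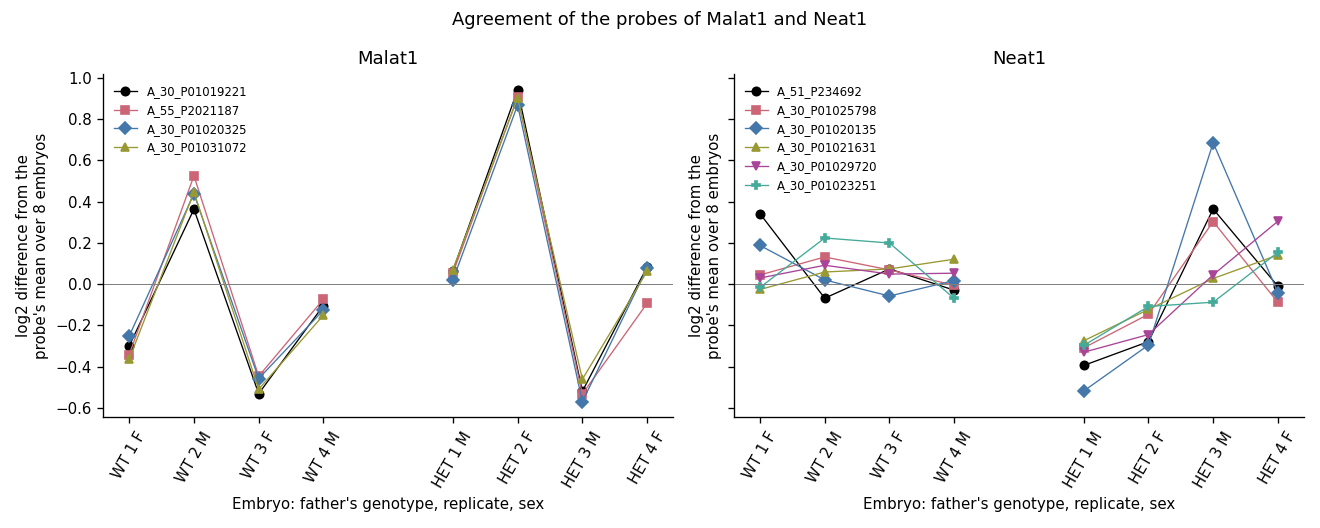
Each line is 1 probe, centred on its own mean over the 8 embryos (vertical axis, log2), with the embryos of Eed wt/wt fathers on the left of each panel and those of Eed hypo/wt fathers on the right (F female, M male). The 4 Malat1 probes stay within 0.18 of each other in every embryo, whereas the 6 Neat1 probes are up to 0.77 apart, in replicate 3 of the Eed hypo/wt fathers.

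Neat1 varied less and its probes agreed less. The brightest probe, A_51_P234692, read -1.01, -1.42, -1.28 and -1.38 with Eed wt/wt fathers and -1.75, -1.63, -0.99 and -1.36 with Eed hypo/wt fathers. The lowest 2 embryos and the highest one were all sired by Eed hypo/wt fathers, so the second group enclosed the first. The means were -1.27 ± 0.18 and -1.43 ± 0.34 (SD, n = 4), a log2 difference of -0.16 (SE 0.18, 95% interval -0.58 to 0.26, adjusted p = 1, limma). All 6 probes gave log2 differences below 0, from -0.17 to -0.08, and replicates 1 and 2 of the Eed hypo/wt fathers were the lowest embryos at all 6. As for Malat1, the probes are not further replicates. The direction rested in part on these embryos: without replicate 1, or without replicate 2, 5 of 6 probes remained below 0. The brightest then gave -0.05 and -0.09.

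The 6 Neat1 probes did not order the other embryos alike. The mean of the probes ranged over 0.58 between embryos, less than the largest gap between probes within an embryo. That gap was 0.77 in replicate 3 of the Eed hypo/wt fathers, where A_30_P01020135 read -0.92 against its mean of -1.60, while A_30_P01023251 read -2.66 against its mean of -2.57. This embryo was also 1 of the 2 with the most probes above background. The 15 pairs of probes had correlations from 0.24 to 0.93, with a median of 0.59. Once the values were seen, the probes could be split into 2 sets of 3. A_51_P234692, A_30_P01025798 and A_30_P01020135 correlated at 0.83 to 0.92 with each other. A_30_P01021631, A_30_P01029720 and A_30_P01023251 did so at 0.77 to 0.93, and pairs across the sets lay at 0.24 to 0.61. For the brightest 2 probes r was 0.83 (exact permutation p = 0.0122, adjusted over 3 relations 0.0183) and rho was 0.71 (exact permutation p = 0.0576, adjusted 0.0864), and r was 0.51 without the 2 embryos farthest from the median, so the relation rested in part on those embryos. Without replicate 3, 2 of the 12 member probes, both of Neat1, reached an unadjusted p under 0.05, against 9.41% of all probes, and none passed the adjusted threshold.

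Snhg1 was the steadiest member. It read 2.17, 2.15, 2.16 and 2.03 with Eed wt/wt fathers and 1.94, 2.02, 1.81 and 2.13 with Eed hypo/wt fathers. Replicate 3 of the Eed hypo/wt fathers was the lowest embryo, and the groups overlapped. The means were 2.13 ± 0.06 and 1.98 ± 0.14 (SD, n = 4), a log2 difference of -0.15 (SE 0.09, 95% interval -0.35 to 0.05, unadjusted p = 0.114, adjusted p = 1, limma), the smallest unadjusted p among the 12. Its range of 0.36 was exceeded by 75.6% of all probes.

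Dleu2 read -2.49, -2.45, -2.43 and -1.98 with Eed wt/wt fathers and -2.72, -2.57, -2.11 and -2.54 with Eed hypo/wt fathers. One embryo in each group stood above the other 3, both of them male. The means were -2.34 ± 0.24 and -2.49 ± 0.26 (SD, n = 4), a log2 difference of -0.15 (SE 0.17, 95% interval -0.54 to 0.24, adjusted p = 1, limma).

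**Figure D3:**
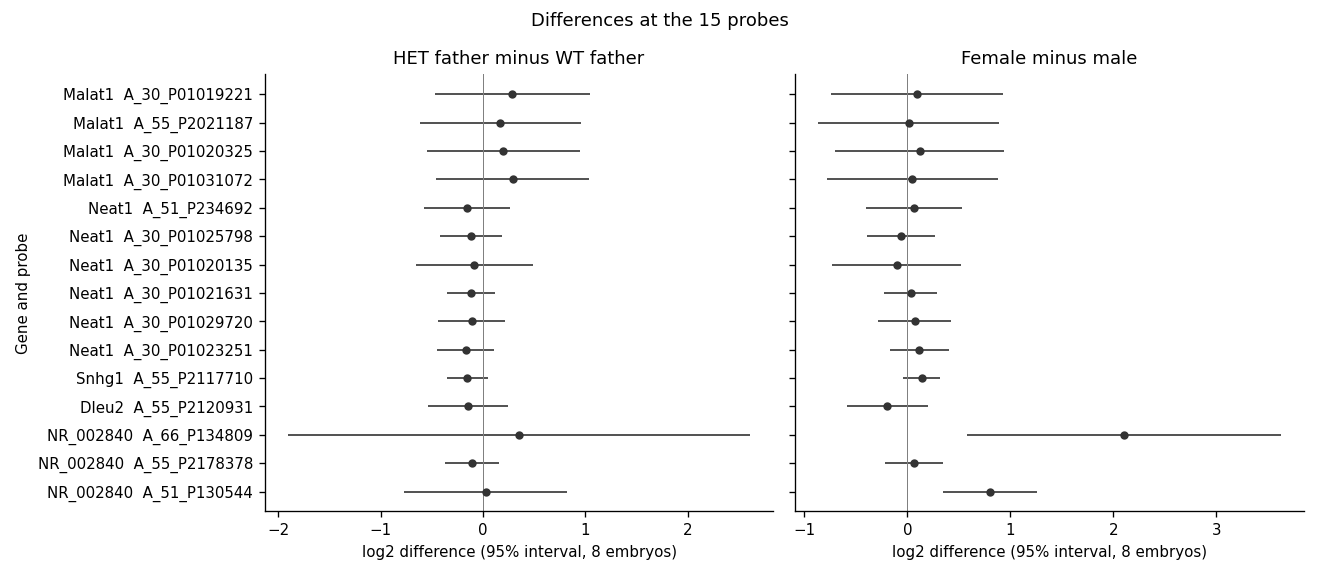
The log2 difference with its 95% interval (limma, 8 embryos) is plotted for the 12 member probes and the 3 probes of NR_002840, on the left as Eed hypo/wt fathers minus Eed wt/wt fathers and on the right as female minus male embryos. All 15 intervals on the left include 0, and on the right 2 intervals do not, both of NR_002840.

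Embryos of both sexes were present in each group, which allowed a second contrast, with the father's genotype in the model. No difference by sex was detected at a member probe. Of the 12, 0 passed the adjusted threshold (0.0332% of all probes did) and 0 had an unadjusted p under 0.05 (3.36%). The sexes failed to overlap at 0 of 12 (2.75%). The 95% intervals were wide, and those of the 4 Malat1 probes lay between -0.86 and 0.94, so a change of nearly 2-fold was not excluded. Female minus male log2 differences were 0.01 to 0.12 for the Malat1 probes, -0.10 to 0.12 for the Neat1 probes, 0.14 for Snhg1 and -0.20 for Dleu2.

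Whether the difference between the groups of fathers varied with the embryo's sex was tested as an interaction, with 2 embryos of each sex in a group. Again 0 of 12 member probes passed the adjusted threshold, as did 0% of all probes, and 0 of 12 reached an unadjusted p under 0.05, against 2.27%. The 4 Malat1 probes came nearest, with unadjusted p from 0.051 to 0.075 and adjusted p of 0.995. At the brightest probe the 2 females of Eed hypo/wt fathers read 2.02 and 1.17, against 0.78 and 0.55 in the 2 females of Eed wt/wt fathers. The males read 1.15 and 0.56 against 1.45 and 0.98, in the opposite order but with overlap.

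The 3 probes of NR_002840 lay up to 1.85 apart in an embryo once centred on their means, more than those of any member. Probe A_66_P134809 read 5.06, 1.63, 4.21 and 1.71 with Eed wt/wt fathers and 1.62, 4.18, 4.16 and 4.07 with Eed hypo/wt fathers. Its values lay at 1.62 to 1.71 in 3 embryos and at 4.07 to 5.06 in the other 5, with none between. The whole range was 3.44, or 10.9-fold, and 4.69% of all probes had a wider one. Both levels occurred in each group of fathers, and the log2 difference between the groups was 0.35 (SE 0.97, 95% interval -1.91 to 2.61, adjusted p = 1, limma).

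The same 3 embryos were lowest at A_51_P130544, which read 1.98, 0.78, 1.62 and 0.54 with Eed wt/wt fathers and 0.80, 1.54, 1.24 and 1.43 with Eed hypo/wt fathers. The third probe, A_55_P2178378, read 1.91 to 2.34 in all 8 embryos and showed no such gap. Correlations between the first probe and the other two were 0.95 with A_51_P130544 and -0.19 with A_55_P2178378. The latter pair, the brightest 2, gave an exact permutation p = 0.633 (adjusted over 3 relations 0.633), rho = -0.05 (exact permutation p = 0.935, adjusted 0.935) and r = 0.04 without the 2 embryos farthest from the median.

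**Figure D4:**
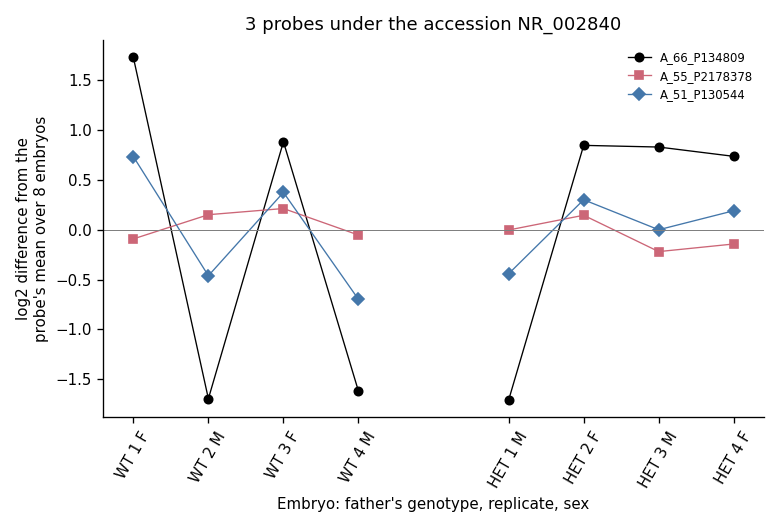
Each line is 1 of the 3 probes under NR_002840, centred on its mean over the 8 embryos (vertical axis, log2), with the embryos of Eed wt/wt fathers on the left and those of Eed hypo/wt fathers on the right (F female, M male). A_66_P134809 and A_51_P130544 are lowest in the same 3 embryos, all male, while A_55_P2178378 stays level.

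All 3 low embryos at A_66_P134809 were male, and the fourth male, replicate 3 of the Eed hypo/wt fathers, lay with the females. The female minus male log2 difference was 2.10 (SE 0.63, unadjusted p = 0.0146, adjusted p = 0.999, limma) at this probe. At A_51_P130544, where the sexes did not overlap, it was 0.80 (SE 0.19, unadjusted p = 0.00473, adjusted p = 0.999), and at A_55_P2178378 it was 0.06 (SE 0.12, adjusted p = 0.999). Neither difference passed the adjusted threshold with all 8 embryos. The call turned on replicate 3 of the Eed hypo/wt fathers and replicate 1 of the Eed wt/wt fathers: without both, which were chosen for their counts of probes above background after seeing the data, A_66_P134809 passed, with a log2 difference of 2.52 and an adjusted p of 0.00917. Without replicate 3 alone the adjusted p was 0.0665. Shifting the arrays by their median gave 2.27 with an adjusted p of 0.0282, while the median of all probes moved from -0.03 to 0.14. The sex of these embryos and the litters they came from were not separated further here.

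Proteins and genes tied to the members by function or position were examined in 10 lists, and in each 0 genes passed the adjusted threshold between the groups of fathers. For Malat1, 0 of 13 genes listed for nuclear speckle or other RNA-binding proteins reached an unadjusted p under 0.05, with a median log2 difference of -0.04. The nearest was Hnrnpc, an RNA-binding protein of nascent transcripts, with 0.27 (unadjusted p = 0.0512, adjusted p = 1, limma). For Neat1 the count was 0 of 16 paraspeckle proteins (median 0.00), where the nearest was Hnrnph3, an RNA-binding protein, with -0.18 (unadjusted p = 0.0823, adjusted p = 1, limma).

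For the host genes, 0 of 9 other snoRNA host genes tested (18 were listed) and 0 of 8 snoRNA ribonucleoproteins reached an unadjusted p under 0.05, with medians of 0.03 and 0.05. Snhg18 gave -0.20 and Snhg6 gave 0.34, while Nop58, a core protein of the snoRNA particle, gave 0.09, each with an adjusted p of 1. Snhg3 was looked at after its values were seen. It read 4.23, 2.87, 4.22 and 2.87 with Eed wt/wt fathers and 4.02, 2.86, 2.74 and 4.20 with Eed hypo/wt fathers, again in 2 separate levels. As at A_66_P134809, replicates 2 and 4 of the Eed wt/wt fathers were low, whereas among the Eed hypo/wt fathers it was replicates 2 and 3 and not replicate 1. Of 10 nonsense-mediated decay factors, which remove spliced host transcripts, 2 were higher at an unadjusted p under 0.05, against 4.34% of all probes in either direction. Smg9, a regulator of the kinase SMG1, read 1.54 to 1.77 with Eed wt/wt fathers and 1.95 to 2.18 with Eed hypo/wt fathers, a log2 difference of 0.47 (SE 0.08, unadjusted p = 0.000654, adjusted p = 0.844, limma), and its groups did not overlap, as at 3.15% of all probes. Smg6, the endonuclease of the pathway, gave 0.23 (unadjusted p = 0.0475, adjusted p = 1, limma).

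For Dleu2, 0 of 8 miR-15/16 targets reached an unadjusted p under 0.05 between the groups of fathers (median 0.01). Ccnd2, cyclin D2, gave -0.10, and Bcl2, a survival factor, gave -0.08, both with an adjusted p of 1. Of 18 neighbours of the 7 genes in the genome, 0 reached an unadjusted p under 0.05 (median 0.05), the nearest being Dleu7, beside Dleu2, with 0.34 (unadjusted p = 0.0923, adjusted p = 1, limma). The lists for Miat and Rmst, 4 splicing partners and 8 neural genes tested, held 0 genes at an unadjusted p under 0.05. Pax6, a transcription factor of the neural tube, gave -0.17 and Khdrbs1, a splicing regulator, gave -0.06.

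Among 15 other named long noncoding RNAs tested, 3 reached an unadjusted p under 0.05, against 4.34% of all probes, and none passed after adjustment (each adjusted p = 1, limma). Pvt1, the neighbour of Myc, gave a log2 difference of 0.33 (unadjusted p = 0.00183). Fendrr, an RNA of the lateral mesoderm, gave 0.50 (unadjusted p = 0.00407). Hotair, transcribed from the HoxC cluster, gave -1.01 (unadjusted p = 0.007) from a single probe that passed the filter on low values. Its level was low, at -5.26 to -4.42 with Eed wt/wt fathers and -6.47 to -5.53 with Eed hypo/wt fathers. In every embryo this was below the median probe of the array. The median local background was 50 to 51 on the arrays of Eed wt/wt fathers. On those of replicates 1 to 4 of the Eed hypo/wt fathers the background was 30, 32, 32 and 133. Its part in this difference was not tested.

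Genes whose brightest probe followed each member most closely were sought among 15376 named genes, by Pearson's r over the 8 embryos, as a description. Haus4, of the augmin complex of the spindle, was nearest to Malat1 (r = 0.95), followed by Tsc22d2 (r = 0.94). Kmt2d, a histone H3 methyltransferase, and Cpeb4, a regulator of translation, were nearest to Neat1 (both r = 0.98). Gm9 and Mki67, a marker of dividing cells, were nearest to Snhg1 (both r = 0.97). Tdg, a DNA glycosylase, and Parp8 were nearest to Dleu2 (both r = 0.98). Likeness of this degree was common for some members: 10, 123, 28 and 105 genes had r above 0.9 with Malat1, Neat1, Snhg1 and Dleu2. The genes share the 8 arrays with the members.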

How the data were processed

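RNA of 8 wild-type E8.5 embryos, 4 per father's genotype, was hybridised to one-colour arrays. The authors extracted the spots with Agilent Feature Extraction 11.0.1.1 (per the labels), and deposited an intensity for each spot, corrected for background and not scaled between arrays. The series table, used as an alternative, holds the same intensity values to within 0.497%.

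Outlier and control spots were left out, log2 intensities of a probe's spots were averaged, and each array was shifted by its 75th percentile. Tested probes lay above the lowest 20% by mean and were well above background on at least 4 arrays, which left 33093 of 55681. Groups were compared with limma 3.58.1 in R 4.3.3, with Benjamini-Hochberg adjustment over all probes tested. The fit was also run on simulated data with independent noise at each probe and embryo. Such data cannot show how the fit behaves where embryos or probes deviate together. Correlations were tested by exact permutation (scipy 1.17.1). The number of arrays limits the precision, and p-values measure the spread between the embryos. Of 28685 probes with a RefSeq accession, 27235 matched a symbol in a GRCm38.p6 table, used for names and sequences. Probe positions were not used here.

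Members and gene lists were chosen with earlier results of these data known. The text names every member probe, up to 3 genes of each list by the smallest unadjusted p, the 2 genes most like each member, and genes said to be chosen after their values were seen. For a gene in a list, the brightest tested probe was used.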

Additional observations from a re-analysis of the deposited data

Results flagged for a closer look

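In 2 of 30 groups of 4 embryos (15 probes in each of 2 groups), 1 embryo stood apart from the rest by more than Dixon's 95% limit, where chance gives about 1.5. For Dleu2 with Eed wt/wt fathers it was replicate 4, which read -1.98 against -2.49 to -2.43, and its gap was 0.876 of the range. For NR_002840, probe A_66_P134809, with Eed hypo/wt fathers it was replicate 1, which read 1.62 against 4.07 to 4.18, and its gap was 0.957 of the range.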

How the results depend on the processing

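No member probe was called between the groups of fathers under any of 21 alternatives, or between the sexes under any of 18. The brightest probes of Malat1, Neat1, Snhg1 and Dleu2 kept their direction under all 20 alternatives, with log2 differences between 0.02 and 0.51, -0.31 and -0.05, -0.25 and -0.08, and -0.32 and -0.03. That of NR_002840 reversed to -0.047 when the code of the embryos was taken as a random block (correlation within a code 0.529), and ranged from -0.15 to 0.99 when 1 embryo was left out. Over all probes, the count between fathers was 1436 at an unadjusted p under 0.05, 0 at an adjusted p under 0.05 without a fold limit, 0 to 1 when 1 embryo was left out, and 1 without both embryos with the most probes above background, an alternative added after seeing the data. The count between the sexes was 11, and became 5 with no filter, 0 for probes above background on all 8 arrays, 0 with the replicate block, 4 to 9 when 1 embryo was left out and 7 without both embryos. The interaction gave 4 calls over all probes after the median shift, none of them a member, against 0. Between 1 and 2 of the 12 member probes reached an unadjusted p under 0.05 between fathers under 5 alternatives, against 5.76% to 9.41% of all probes. In the interaction, member probes did so under 8 alternatives. Without replicate 1 of the Eed hypo/wt fathers it was 5 of 12, against 14.7% of all probes. Under the rest of the 8 it was 1 to 4 of 12, a larger share than the 1.47% to 2.43% of all probes. Probes of a gene read the same RNA, so these counts describe no tendency of the 4 genes. In the main fit the 4 Malat1 probes came nearest to this limit. The adjusted p of a member was no lower than 0.283 under any of the 8 (limma). The causes were not tested. Embryos with the same replicate number did not deviate together (correlations -0.59 to -0.05), so the numbers do not pair them. With the replicate block, 880 probes had an unadjusted p under 0.05 between fathers, against 1436 without it, and it changed no call of a member. The interaction with the replicate block could not be fitted. All member probes were well above background on all 8 arrays, and whether signal limited their comparison was not tested.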
